A study of Mus musculus with 6 samples.

Results

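The myosin genes described here are the heavy and light chains whose symbol is Myo, Myh or Myl followed by a number. The cells were pre-B cells from the bone marrow of Ppp2r1a fl/fl mice, transformed by transduction with BCR-ABL1, the kinase fusion of Philadelphia chromosome-positive leukaemia. Ppp2r1a encodes a scaffold subunit of protein phosphatase 2A (PP2A). In the Cre group (3 arrays) these cells received Cre recombinase, which deletes the floxed gene, and in the EV group (3 arrays) they received an empty vector. The EV cells are labelled as wild type for PP2A, but they carry the floxed alleles and the oncogene as the Cre cells do. No array held Cre in cells without floxed alleles, so effects of Cre itself and of the deletion cannot be told apart. The labels used here do not state mouse age or strain, the promoter that drives Cre, or the time of collection.

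The family holds 49 of the 19733 genes that could be named from a probe set with 1 symbol. Where a gene had several probe sets, the one with the highest mean over the 6 arrays was taken. A gene was counted as expressed when the mean of either group reached 6 on the log2 scale, which 15 genes did, and the other 34 were dimmer. Measured levels therefore chose the probe set and the division into expressed and dimmer genes, and the family was put together with Cre against EV results known. On the near side of the limit lay Myo18a (group means of 6.15 in Cre and 5.85 in EV), Myh10 (6.43 in Cre and 6.54 in EV) and Myo19 (6.58 in Cre and 6.61 in EV). On the far side lay Myo1f (5.72 in Cre and 5.26 in EV), Myo1d (5.71 in Cre and 5.24 in EV) and Myo7a (5.20 in Cre and 5.62 in EV). Myo18a reached the limit in the Cre group alone.

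Myosins are motors that pull on actin filaments with the energy of ATP. A conventional myosin, class II, is a pair of heavy chains (Myh genes) with a long coiled tail, and each head carries an essential and a regulatory light chain (Myl genes). Phosphorylation of the regulatory light chain switches non-muscle and smooth muscle myosin II on. The unconventional myosins (most Myo genes) do not form muscle-type filaments. They tether membranes to actin, carry vesicles or shape protrusions. In lymphocytes, non-muscle myosin II and the short and long-tailed class I myosins act in migration, cell shape and the tension of the cell membrane.

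The deleted gene was checked first. Ppp2r1a read 7.12, 6.98 and 6.92 in the Cre arrays, against 9.06, 9.05 and 9.06 in the EV arrays. Its groups were far apart, with a change of -2.05 (limma adjusted p = 1.203e-05). Signal for Ppp2r1a remained in the Cre group, whose mean of 7.005 was above the limit of 6. The source of that signal was not tested, so complete deletion in all cells is not shown. All 15 pre-B cell markers tested had a group mean of 6 or more. None of 16 striated muscle markers did, and 0 of 9 T and NK cell markers did. Single genes passed the limit among 10 myeloid markers (Cd68, a lysosomal protein) and 7 erythroid and megakaryocyte markers (Tfrc, the transferrin receptor of dividing cells), and 2 of 14 smooth muscle and stromal markers did. The titles number the arrays as repeats without saying whether they came from separate cultures, so the p-values reflect array-to-array spread that may be technical only. In bulk samples, fewer cells of a type and less RNA per cell cannot be told apart.

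Most myosin genes differed little between Cre and EV, and the exceptions were a few heavy chains of classes I, VII and XV and 1 essential light chain. For 30 of the 34 dimmer members both group means lay below the lowest array median, where expression cannot be told from background. Of the 49 genes, Myo1e, Myl4, Myo1f and Myo15b rose in the Cre cells and Myo7a fell, at a limma p adjusted below 0.05 over all genes. That is 5 of 49 (10.2%), against 3.49% of all genes tested. Only Myo1e and Myl4 kept their calls in every fit with 1 array left out. By direction, 1.35% of all genes were called higher and 2.14% lower. Because the family was proposed with these results known, no test of that share was made. At an unadjusted limma p below 0.05 there were 9 of the 49, against 16.1% of all genes. The family's median change was 0.01, and that of all genes was -0.003 (log2, Cre minus EV). Positive changes were found in 26 members and negative ones in 23. For 13 members (26.5%) the groups were fully separate, against 22.5% of all genes. The Cre arrays lay fully higher in 10 of the 49 and fully lower in 3 of the 49. Among all genes tested, these shares were 10.3% and 12.2%.

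**Figure D1:**
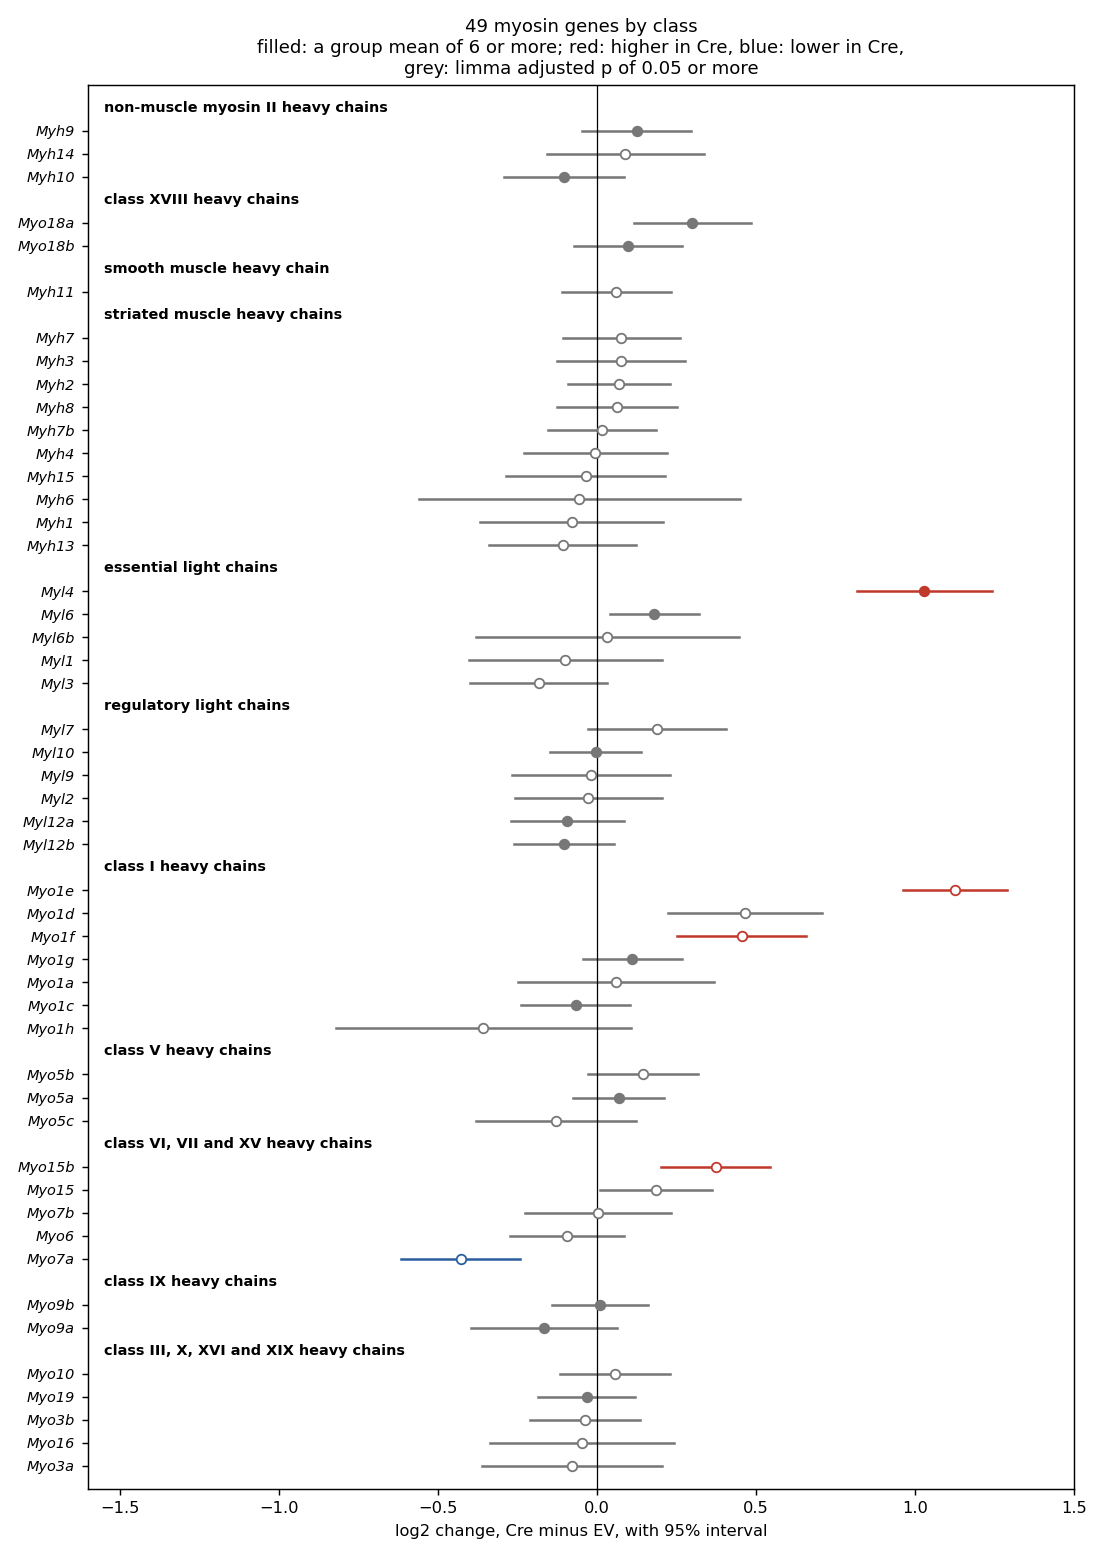
Log2 change, Cre minus EV, of 49 myosin genes with its 95% interval, grouped by class; filled points are genes with a group mean of 6 or more, red is higher in Cre, blue lower in Cre, and grey marks genes that did not pass. Myo1e (1.13) and Myl4 (1.03) stand well right of the other members, and Myo7a (-0.43) is the coloured gene on the left.

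The largest change of the family was that of Myo1e, a long-tailed class I myosin with an SH3 domain, known for work in endocytosis and at podosomes. It read 5.43, 5.37 and 5.29 in the Cre arrays, against 4.26, 4.16 and 4.29 in the EV arrays. The groups lie about a whole log2 unit apart, with no overlap. Myo1e averaged 5.36 ± 0.07 in Cre and 4.24 ± 0.07 in EV (SD, n = 3 each), 2.18-fold higher in Cre (log2 change 1.13, SE 0.07; limma adjusted p = 2.084e-04). Its EV mean lies below the array medians of 5.22 to 5.27, so the fold rests on a dim EV level. The call held in each of the 6 fits with 1 array left out, with a highest adjusted p of 0.0024.

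Myl4 was the single expressed member that passed. It encodes an essential light chain of embryonic muscle and of the heart's atria. Its levels were 8.62, 8.44 and 8.62 in the Cre arrays, against 7.38, 7.62 and 7.60 in the EV arrays. Both groups were well above the array medians, and every Cre array was higher than every EV array. The means were 8.56 ± 0.10 in Cre and 7.53 ± 0.14 in EV (SD, n = 3 each), 2.04-fold higher in Cre (log2 change 1.03, SE 0.09; limma adjusted p = 0.0011). The highest adjusted p with 1 array left out was 0.0072. Of 16 striated muscle markers, 0 passed in limma (3.49% of all genes did) and 0 had an unadjusted p below 0.05 (16.1% of all genes did). Most of these markers were dim: 5 of the 16 averaged above the array medians and 0 had a group mean of 6, so a lower level could hardly have been seen. The summed linear level of those markers was 538 to 596 in the Cre arrays and 532 to 585 in the EV arrays. Acta1, skeletal actin, had the highest mean among them, at 5.78 in Cre and 5.85 in EV.

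The DNA just before the annotated start is shown for Myo1e and Myl4, whose calls held in every fit that tested them, and for Myo7a, the member that fell. The sequences are the 250 bases before the start in the RefSeq promoter table (build GRCm38.p6), written 5′ to 3′ on the gene's strand. Myo1e lies at chr9:70207100-70207349 (plus strand), Myl4 at chr11:104550413-104550662 (plus strand) and Myo7a at chr7:98119494-98119743 (minus strand, the first of 2 starts in the table). Capitals mark matches, on either strand, to 6 motifs that were chosen after these sequences had been read.
Myo1e: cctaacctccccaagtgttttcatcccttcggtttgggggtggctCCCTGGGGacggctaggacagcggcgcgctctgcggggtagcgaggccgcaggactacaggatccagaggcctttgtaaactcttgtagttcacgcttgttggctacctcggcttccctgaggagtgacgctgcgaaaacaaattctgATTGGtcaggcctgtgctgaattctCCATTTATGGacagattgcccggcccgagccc
Myl4: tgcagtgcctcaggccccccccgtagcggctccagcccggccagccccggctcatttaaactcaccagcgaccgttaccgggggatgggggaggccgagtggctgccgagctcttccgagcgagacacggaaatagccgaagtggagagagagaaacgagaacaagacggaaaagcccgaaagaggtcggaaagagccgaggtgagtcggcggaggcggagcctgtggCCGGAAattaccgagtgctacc
Myo7a: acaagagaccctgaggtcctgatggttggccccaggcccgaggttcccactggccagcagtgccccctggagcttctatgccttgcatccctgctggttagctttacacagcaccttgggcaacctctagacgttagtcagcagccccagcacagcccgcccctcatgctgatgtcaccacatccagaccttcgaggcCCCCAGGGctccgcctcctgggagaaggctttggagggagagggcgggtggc

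The motifs searched were the CArG box bound by serum response factor (SRF), CCGGAA (an ETS core), TTCNNNGAA (the STAT palindrome), CAGGTG (an E-box), CCCNNGGG (the EBF1 palindrome core) and CCAAT. The Myo1e window held a CArG box between 32 and 23 bases before the start, with a CCAAT match and a CCCNNGGG match further upstream. The Myl4 window held CCGGAA between 22 and 17 bases before the start and none of the other 5. The Myo7a window shown held CCCNNGGG alone, and the window at its other start held none of the 6 motifs. A CArG box was found in 1.47% of all 32851 windows of this length, and in 6 of 55 windows of the 44 myosin genes that matched the table (10.9%). The other members with one were Myl3, Myl7, Myl9, Myh4 and, at 1 of its 2 starts, Myl6. These members did not move alike: Myl3 differed by -0.18, Myl7 by 0.19, Myl9 by -0.02, Myh4 by -0.01 and Myl6 by 0.18, and none of the 5 passed. CCCNNGGG was in 23.6% of the myosin windows and 11.8% of all windows, and CCGGAA in 14.5% of the myosin windows and 12% of all. CCAAT was in 32.7% of the myosin windows and 33.8% of all, CAGGTG in 12.7% and 17.2% of all, and TTCNNNGAA in 1.82% and 7.02% of all. A match is a description of letters and not a binding site.

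The remaining class I myosins lay on both sides of the threshold. Myo1f, a long-tailed class I myosin of neutrophils and other immune cells, read 5.69, 5.62 and 5.84 in the Cre arrays, against 5.38, 5.25 and 5.16 in the EV arrays. The groups did not overlap. It was 1.37-fold higher in Cre (log2 change 0.45, SE 0.09; limma adjusted p = 0.0336), and the adjusted p lay between 0.0529 and 0.106 when any 1 array was left out, so that no such fit called it. The summed level of 10 myeloid markers was 214 to 222 in the Cre arrays and 220 to 233 in the EV arrays. Cd68, the one myeloid marker with a group mean of 6 or more, had the highest mean of the 10 and differed by -0.36. Of the 10, 8 had a positive change, and the list's median was 0.11. None passed, and 3 had an unadjusted p below 0.05, against 16.1% of all genes. These were Cd68 and, with changes of 0.24 each, Itgam and S100a9. The part of myeloid transcripts in the Myo1f result was not tested.

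Myo1d, a short-tailed class I myosin whose fly homologue sets left-right asymmetry, read 5.73, 5.73 and 5.66 in the Cre arrays, against 5.06, 5.19 and 5.47 in the EV arrays. The Cre arrays were close together and all above the EV arrays, among which the third was the nearest to them. The difference of 0.47 (SE 0.10) did not pass (limma adjusted p = 0.0616), and without EV replicate 3 it was 0.58 with an adjusted p of 0.0180. Its second probe set differed by 0.21 with no overlap between the groups.

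Among the expressed class I genes, Myo1g, a short-tailed myosin found in blood cells, read 7.93, 7.87 and 7.89 in Cre, against 7.79, 7.85 and 7.70 in EV. The groups did not overlap, but the gap was narrow (0.11, SE 0.07; limma adjusted p = 0.486). Myo1c, which links membranes to actin in many cell types, read 7.37, 7.46 and 7.35 in Cre, against 7.38, 7.56 and 7.44 in EV. Its groups overlapped (-0.07, SE 0.07). Myo1a, of the gut brush border, and Myo1h were dim, and their changes of 0.06 and -0.36 did not pass. The wide Myo1h value came from 1 Cre array at 3.59, while the other two Cre arrays read 4.40 and 4.34, and the 3 EV arrays read between 4.38 and 4.55. In all, 2 of 7 class I genes rose, 0 fell and 5 did not pass, where 1.35% of all genes were called higher. Of the 2, Myo1e kept its call with any 1 array left out and Myo1f did not.

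**Figure D2:**
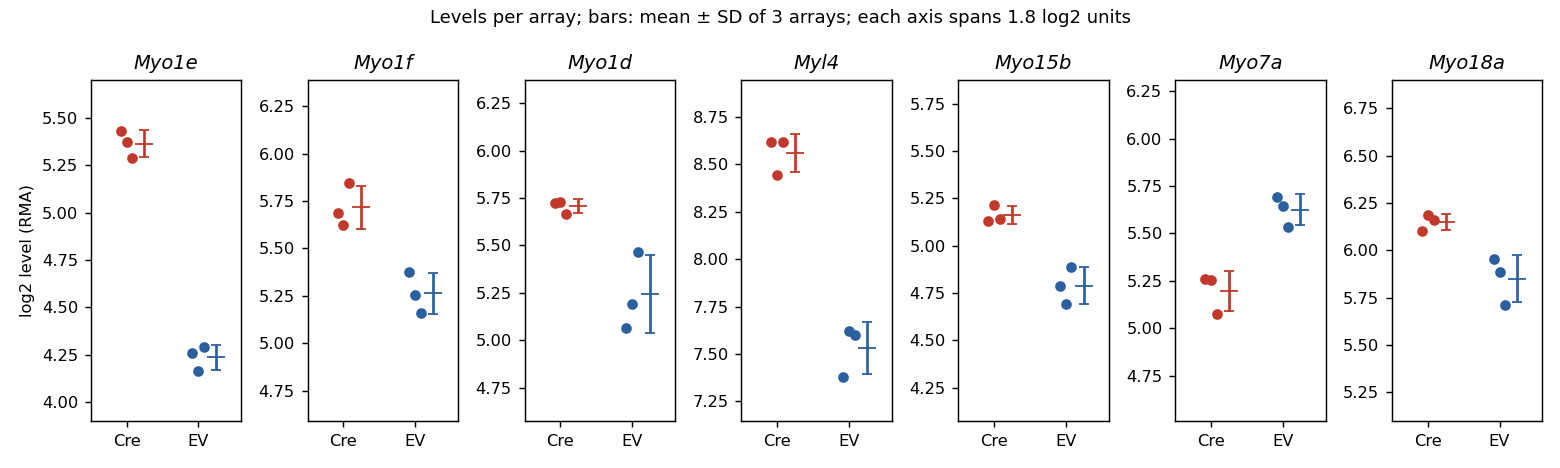
Log2 level on each of the 3 Cre and 3 EV arrays for the 5 myosin genes that passed (Myo1e, Myo1f, Myl4, Myo15b, Myo7a) and for Myo1d and Myo18a, which did not; bars are the mean ± SD of 3 arrays, and every axis spans the same log2 range. Cre and EV arrays do not overlap in any of the 7 panels, and the gap is widest for Myo1e and Myl4.

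Of 5 heavy chains of classes VI, VII and XV, 1 rose, 1 fell and 3 did not pass. Among all genes, 1.35% were called higher and 2.14% lower. Myo7a, a motor of hair cell stereocilia, read 5.26, 5.26 and 5.07 in the Cre arrays, against 5.69, 5.64 and 5.54 in the EV arrays. The groups did not overlap, and it was 1.35-fold lower in Cre (log2 change -0.43, SE 0.08; limma adjusted p = 0.0306). Its EV mean of 5.62 lay above every array median and its Cre mean of 5.20 below, so the fold rests on a dim Cre level. Myo15b read 5.13, 5.21 and 5.14 in the Cre arrays, against 4.79, 4.69 and 4.89 in the EV arrays. All Cre arrays were above all EV arrays, and it was 1.29-fold higher in Cre (log2 change 0.37, SE 0.07; limma adjusted p = 0.0364). Both of its group means lay below every array median, so the signal of Myo15b cannot be told from background and its fold is a difference in measured signal.

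Neither call held throughout. That of Myo7a was lost whichever array was left out (adjusted p between 0.0529 and 0.106). That of Myo15b was lost in 5 of the 6, with a highest adjusted p of 0.134, and held without EV replicate 3 (0.0489). Myo15, a motor of stereocilium tips, differed by 0.19 (SE 0.08; adjusted p = 0.283). Myo7b, of the brush border, differed by 0.003, and Myo6, which walks towards the minus end of actin, by -0.09. Neither passed.

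The main heavy chains of myosin II in blood cells were close to level. Myh9, the heavy chain of non-muscle myosin IIA, read 8.10, 8.05 and 8.20 in the Cre arrays, against 8.002, 8.06 and 7.92 in the EV arrays. The groups overlapped, and the change of 0.12 had a 95% interval of -0.05 to 0.29 (limma adjusted p = 0.477). Myh10, the heavy chain of myosin IIB, read 6.49, 6.40 and 6.41 in Cre, against 6.60, 6.62 and 6.39 in EV. One EV array lay below all Cre arrays, and the change was -0.10 (95% interval -0.29 to 0.08; adjusted p = 0.604). Myh14, of myosin IIC, was dim, at 5.02 ± 0.07 in Cre and 4.93 ± 0.20 in EV (SD, n = 3 each). The opposite signs of Myh9 and Myh10 are within the spread of the arrays.

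Myo18a, a myosin that joins non-muscle myosin II filaments, read 6.10, 6.19 and 6.16 in the Cre arrays, against 5.95, 5.88 and 5.71 in the EV arrays. The groups did not overlap, but the difference of 0.30 (SE 0.08) did not pass (limma adjusted p = 0.102). With the lowest 50% of all genes left out of the test, its adjusted p was 0.0271. Myo18b, a relative needed to build muscle sarcomeres, read 9.26, 9.31 and 9.42 in Cre, against 9.27, 9.15 and 9.28 in EV (0.10, SE 0.07; adjusted p = 0.590). Its place among the expressed genes rests on few of its probe sets: 4 of 20 had a group mean of 6 or more, and the median probe set averaged 4.77. Of the 20, 10 were higher and 10 lower in Cre, with changes between -0.17 and 0.20.

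The light chains that non-muscle myosin II uses differed by at most 0.18. Myl6, the essential light chain of smooth muscle and non-muscle myosin II, read 11.67, 11.64 and 11.70 in the Cre arrays, against 11.47, 11.53 and 11.49 in the EV arrays. The groups did not overlap, and the spread within each was small for the probe set used (SD 0.03 in both). The change of 0.18 (SE 0.06; 95% interval 0.04 to 0.32) did not pass (limma adjusted p = 0.186). All 6 of its probe sets were higher in Cre with no overlap, by 0.17 to 0.19. The annotation gives all 6 the same RefSeq transcript, so they share sequence and do not count as separate evidence. With the spread modelled by level (limma's trend and robust settings), the same change had an adjusted p of 0.0022. Myl6b, its neighbour on chromosome 10, was dim and differed by 0.03.

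Myl12a and Myl12b, adjacent genes on chromosome 17 for the regulatory light chains of non-muscle myosin II, were both slightly lower in Cre. Myl12a read 9.87, 10.04 and 9.88 in Cre, against 9.95, 10.10 and 10.02 in EV. Myl12b read 11.16, 11.03 and 11.17 in Cre, against 11.19, 11.27 and 11.22 in EV. The groups overlapped for Myl12a (-0.09, SE 0.08; limma adjusted p = 0.624) and stood narrowly apart for Myl12b (-0.10, SE 0.07; adjusted p = 0.529). Near-identical coding sequences make it possible that the 2 probe sets share signal, which was not tested.

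Myl10 is the regulatory light chain whose older name, PLRLC, stands for precursor lymphocytes, in which it was found. It read 11.34, 11.33 and 11.37 in the Cre arrays, against 11.34, 11.40 and 11.31 in the EV arrays. The groups lay on top of each other, with a change of -0.004 and a 95% interval of -0.15 to 0.14. Of 15 pre-B markers tested in the same arrays, 3 fell, 0 rose and 12 did not pass. The share called was 20%, against 3.49% of all genes, of which 2.14% were called lower. Rag1 and Rag2, which cut antigen receptor genes, were among those that fell, with changes of -2.09 and -1.84. Vpreb3, which associates with the pre-B cell receptor, was at 12.42 ± 0.03 in Cre and 12.44 ± 0.02 in EV (SD, n = 3 each) and did not pass.

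**Figure D3:**
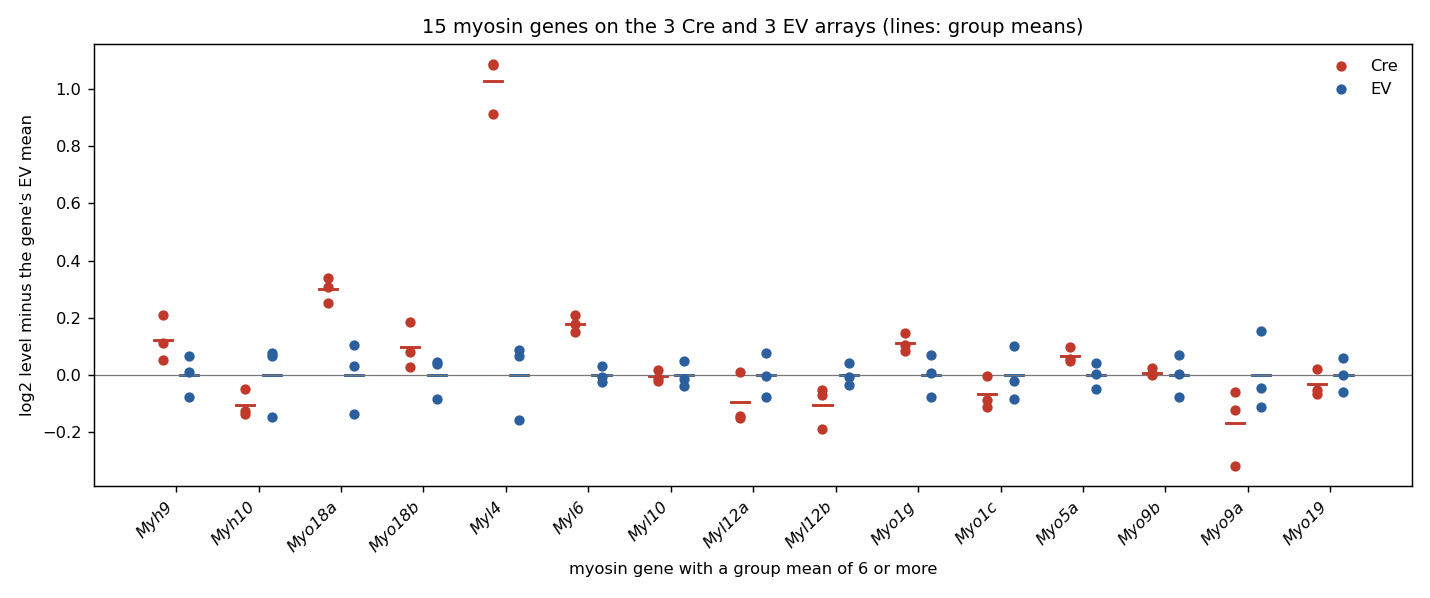
Log2 level minus the gene's EV mean on each array, for the 15 myosin genes with a group mean of 6 or more; red points are the 3 Cre arrays, blue points the 3 EV arrays and lines the group means. Myl4 is the one gene whose Cre arrays stand about 1 log2 unit above EV, and the changes of the other 14 lie between -0.17 and 0.30.

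Vesicle carriers, the class IX myosins and the mitochondrial myosin did not pass. Myo5a, which carries melanosomes and other vesicles, read 7.33, 7.29 and 7.28 in the Cre arrays, against 7.24, 7.19 and 7.28 in the EV arrays. The groups were barely separate (change 0.07, SE 0.06; limma adjusted p = 0.667). Its neighbour Myo5c, of epithelia, was dim and differed by -0.13, and Myo5b, of recycling endosomes, was dim and differed by 0.15. Myo19, which moves mitochondria, read 6.56, 6.54 and 6.63 in Cre, against 6.55, 6.67 and 6.61 in EV. Its groups overlapped (-0.03, SE 0.07).

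Myo9b and Myo9a are the class IX heavy chains. Myo9b read 8.21, 8.23 and 8.20 in the Cre arrays, against 8.27, 8.13 and 8.21 in the EV arrays. Its change was 0.01 (95% interval -0.14 to 0.16). Myo9a read 6.74, 6.54 and 6.80 in Cre, against 6.81, 7.01 and 6.75 in EV, with overlap (-0.17, SE 0.10; limma adjusted p = 0.481). Of its 13 probe sets, 11 were lower and 2 higher in Cre, with a median change of -0.15. None passed (lowest adjusted p over all probe sets 0.259), and in 1 of them the groups did not overlap.

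**Figure D4:**
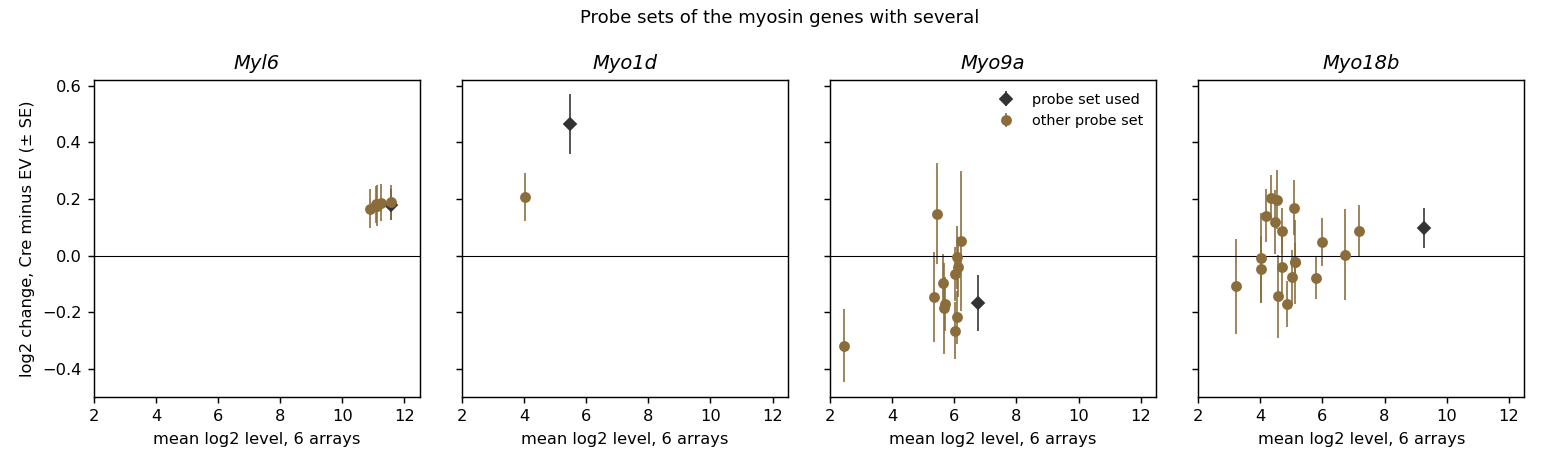
Log2 change, Cre minus EV, with its SE against the mean level for every probe set of Myl6 (6), Myo1d (2), Myo9a (13) and Myo18b (20); the diamond is the probe set used. The Myl6 sets sit together at 0.17 to 0.19, most Myo9a sets lie below 0, and the Myo18b sets scatter on both sides of it.

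The muscle heavy chains and the other specialised motors were dim. The 10 striated muscle heavy chains (Myh1, Myh2, Myh3, Myh4, Myh6, Myh7, Myh7b, Myh8, Myh13 and Myh15) had group means between 2.66 and 4.81, and their changes ran from -0.11 to 0.08. A run of 6 of them, from Myh3 to Myh13, are neighbours on chromosome 11, and 0 of the 10 had groups that did not overlap. None passed in limma, and 0 had an unadjusted p below 0.05. Myh11, of smooth muscle, was at 4.88 ± 0.08 in Cre and 4.82 ± 0.08 in EV (SD, n = 3 each). The muscle light chains Myl1, Myl2, Myl3 and Myl7 and the smooth muscle light chain Myl9 differed by -0.10, -0.03, -0.18, 0.19 and -0.02.

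Of these, Myl3, a slow muscle and ventricular light chain, had EV arrays that all lay above the Cre arrays (4.82, 4.61 and 4.88 in Cre, against 5.07, 4.89 and 4.90 in EV; adjusted p = 0.400). Myo3a and Myo3b, of hair cells and photoreceptors, Myo10, of filopodia, and Myo16, of neurons, differed by at most 0.08. Of the 34 dimmer members, 30 had both group means below the lowest array median. No detection calls were used, so for them the arrays give little room to see a lower level, and expression cannot be told from background.

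Genes around the myosins were described from 5 lists. Of 37 tested regulators of myosin II (kinases, phosphatase subunits and other signalling genes), 1 rose, 0 fell and 36 did not pass. The share called was 2.70%, against 3.49% of all genes, and the median change was 0.01. The gene that rose was Cdc42bpa, the kinase MRCK-alpha, which phosphorylates the regulatory light chain and its phosphatase. It read 6.50, 6.41 and 6.50 in the Cre arrays, against 5.59, 5.65 and 5.71 in the EV arrays, 1.77-fold higher in Cre (log2 change 0.82, SE 0.07; limma adjusted p = 7.322e-04). The groups did not overlap, and the highest adjusted p with 1 array left out was 0.0055. S100a4, a calcium-binding protein that takes apart myosin IIA filaments, differed by 0.57 (SE 0.12; adjusted p = 0.0534). Its Cre arrays read 5.29, 5.33 and 4.89, against 4.63, 4.68 and 4.49 in EV, with no overlap. Both group means (5.17 in Cre and 4.6 in EV) lay below every array median, so its signal cannot be told from background. S100a4 passed in 5 of 8 other settings with all arrays, and without Cre replicate 3 its adjusted p was 0.0117.

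Of 22 tested genes of actin, tropomyosin and actin turnover, 0 rose and 1 fell, with a median of 0.005. The share called was 4.55%, near the 3.49% of all genes. Tpm1, a tropomyosin that lies along actin and limits which myosins bind, read 6.61, 6.56 and 6.59 in the Cre arrays, against 6.90, 6.98 and 6.85 in the EV arrays. It was 1.25-fold lower in Cre with no overlap (log2 change -0.32, SE 0.06; limma adjusted p = 0.0390). The call was lost whichever array was left out (adjusted p between 0.0758 and 0.137) and with each array centred on its median (0.0659). Pfn2, a profilin, differed by -0.39 (SE 0.14; adjusted p = 0.204).

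Of 11 tested genes of SRF, its cofactors and targets, 1 rose and 1 fell. That is 18.2% called, against 3.49% of all genes. The list held 16 entries, and 5 of them were not matched to a tested gene. Cnn2, a calponin that restrains actomyosin, read 6.23, 6.33 and 6.29 in the Cre arrays, against 5.57, 5.64 and 5.20 in the EV arrays. It was 1.76-fold higher in Cre (log2 change 0.81, SE 0.12; limma adjusted p = 0.0096), with no overlap. The gene that fell was Tpm1 again. Srf itself was at 7.07 ± 0.05 in Cre and 7.04 ± 0.09 in EV (SD, n = 3 each). The list's median change was 0.07.

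None of 12 tested chaperones and other light chains passed. Calm3, a calmodulin, which serves as light chain of many unconventional myosins, differed by 0.19 (SE 0.07; limma adjusted p = 0.231), and Unc45a, the myosin chaperone, by -0.15 (SE 0.07; adjusted p = 0.347). None of 24 tested partners of myosins V, VI and VII passed. Sytl2, a Rab27 effector, differed by -0.36 (SE 0.10; adjusted p = 0.120), and Cdhr2, a brush border protocadherin, by 0.40 (SE 0.12; adjusted p = 0.135). At an unadjusted p below 0.05 there was 1 of 12 genes on the first of these lists and 4 of 24 on the second, where all genes had a share of 16.1%.

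**Figure D5:**
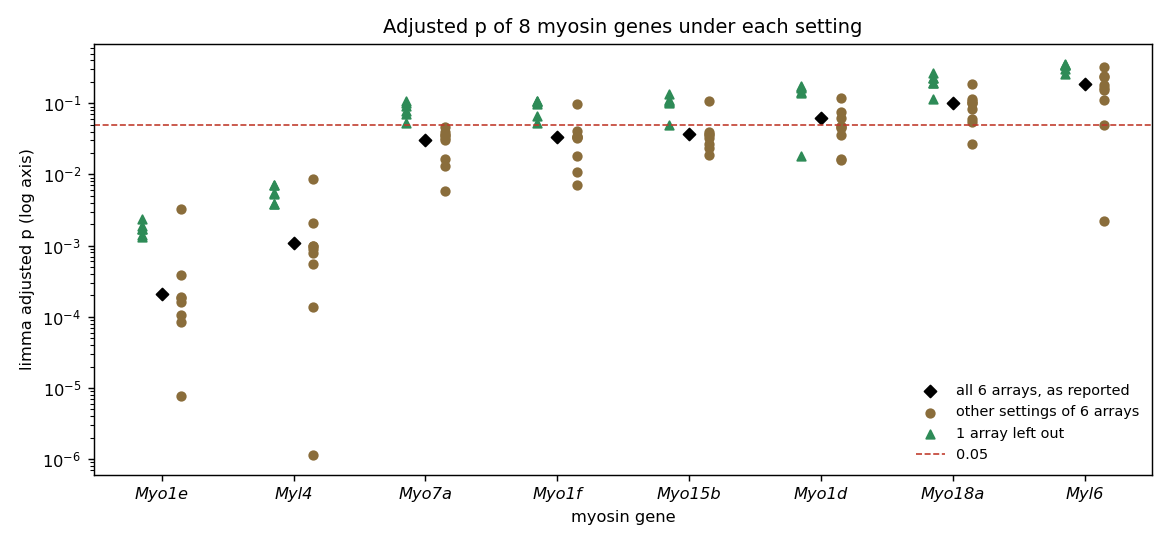
Limma adjusted p (log axis) of 8 myosin genes as reported (diamonds), under other settings with all 6 arrays (circles) and with 1 array left out (triangles); the dashed line is 0.05. Myo1e and Myl4 lie below the line throughout, while Myo7a, Myo1f and Myo15b cross it when 1 array is left out.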

How the data were processed

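The authors deposited log2 values for every probe set on every array, which RMA had produced according to the submitters' processing notes. RMA corrects background, equalises array distributions by quantiles and summarises probes; no version was found in the labels. Quantile normalization hides a change of the whole transcriptome, so each change is relative to other genes, and the number of arrays limits the precision. Probe sets were named from the platform annotation: of 25006, 21467 had 1 symbol, 1521 several and 2018 none. All 86 myosin probe sets had 1 symbol. Chromosomes came from a RefSeq table (GRCm38.p6), and no coordinates are given for probe sets.

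All 19733 genes were fitted in R 4.3.3 by limma 3.58.1, using lmFit and eBayes on the 2 groups without a filter, and with Benjamini-Hochberg adjustment over all of them. A gene was called at an adjusted p below 0.05. The fit was tested on simulated data. Changes are Cre minus EV with limma's SE. Tables used Python 3.11.15 and pandas 2.3.3, and plots matplotlib 3.10.9. Every member with a group mean of 6 or more was named. So were dimmer members that passed, the nearest 3 on each side of 6, list members that passed, or the 2 with the smallest p. The other dimmer members are given to account for the whole family, and Srf, Rag1, Rag2, Vpreb3, Acta1, Cd68, Itgam, S100a9 and Tfrc were named after their values were seen. The members and lists were chosen with earlier results of these data known. Alternatives were the repeat number as a block, other scalings, filters, variance settings and probe choices, and leaving out each array.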

Additional observations from a re-analysis of the deposited data

How the results depend on the processing

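The changes of Myo1e and Myl4 passed under every alternative that gave a value, with adjusted p up to 0.0033 and 0.0085. With 1 array left out, the count of all genes called, 689 with all arrays, ranged from 362 to 424. The count of myosin genes higher in Cre, 4 with all arrays, ranged from 2 to 4. The fit that gave 4, without EV replicate 3, called Myo1d (limma adjusted p = 0.0180) and not Myo1f (0.106). The count of myosin genes lower in Cre, 1 with all arrays, was 0 in every fit with 1 array left out. In those fits 1 to 2 regulators of myosin II, 0 actin and tropomyosin genes and 1 to 2 SRF genes passed. No pairing by repeat number was found (correlations of same-numbered deviations between -0.01 and 0.03). With the repeat number as a replicate block, 425 genes were called in all, 2 myosin genes were higher (Myo1f, at an adjusted p of 0.0982, and Myo15b, at 0.1085, lost their calls), Myo7a kept its call (0.0464), and 2 regulators, 0 actin genes and 1 SRF gene passed. With arrays centred on their medians, 2 regulators, 0 actin genes and 1 SRF gene passed. The call of Tpm1 and its loss account for the actin counts. Limma's trend and robust settings called 1558 genes and 2 of 15 expressed myosin genes, and leaving out the lowest 50% of genes called 1295 and 3, where fewer genes were tested. That filter also removed Myo1e and Myo15b from the test. Myo1d passed in 6 of 9 other settings with all arrays. Changes near 0 turned in sign: Myl10 was 0.0017 with centred arrays and ranged from -0.0235 (without EV replicate 3) to 0.0215 (without EV replicate 2) with 1 array left out, positive also without Cre replicate 2, and Myo9b ranged from -0.0283 (without EV replicate 2) to 0.0447 (without EV replicate 1). The cause of these differences was not tested.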
